A study of Sus scrofa with 18 samples.

Results

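The immediate-early transcription factors examined here were the AP-1 genes FOS, FOSB, JUN, JUNB and ATF3, the zinc finger gene EGR1, the orphan nuclear receptor genes NR4A1 and NR4A3, the nuclear protein gene IER2 and MYC. A gene was taken when a probe set, the group of short probes that measures one transcript, carried its name as the only gene symbol in the annotation of the array. This held for 7 of the 10 names, with 1 probe set each, out of 25388 probe sets in all. FOSB, JUNB and NR4A1 were not analysed here, because no probe set carries one of these names alone. The names were chosen by function but with earlier results of these pigs known, among them the log2 differences of ATF3, JUN and MYC between groups IM10 and CON. The set therefore counts as selected on the differences from group CON, and those of both insect meal groups are given below as a description, without a test.

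The arrays came from the gastrocnemius, a calf muscle, of male crossbred pigs [Piétrain × (German Landrace × German Edelschwein)] that were 5 weeks old at the start. For 4 weeks, group CON was fed a diet with soybean extraction meal and 0% insect meal, group IM5 a diet with 5% insect meal in place of 50% of the soybean extraction meal, and group IM10 a diet with 10% insect meal in place of 100% of it. The insect meal was made from larvae of the mealworm Tenebrio molitor, and the diets were matched in nitrogen. Cellulose was added to the diets of groups IM5 and IM10 only, which held more crude fibre, and added oils and amino acids also differed between diets. Insect meal and these other differences of the diets cannot be told apart. Each group held 10 pigs in pens of 3 or 4, of which 6 per group were measured on 1 array each, and all were killed in the fed state on day 29 by electronarcosis and exsanguination. Each pen held pigs of 1 group, so pen and diet cannot be told apart, and the sources used here do not say which pig was in which pen.

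Immediate-early genes are transcribed within minutes of a stimulus, without new protein having to be made first, and most of their mRNAs are short-lived. In muscle they are known to respond to contraction, stretch, injury, adrenergic signals and growth factors, through MAP kinases and the transcription factors SRF and CREB. FOS, JUN and ATF3 proteins bind DNA as pairs within the AP-1 and ATF families, EGR1 and NR4A proteins bind DNA through zinc fingers, and MYC pairs with MAX to drive genes of growth and ribosome production.

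Expression is given on the log2 scale as deposited by the authors, who corrected the probe intensities for background, normalized the arrays against each other and summarized the probes with the method RMA, so a difference of 1 stands for a doubling. Array medians lay between 4.91 and 5.00, pairs of arrays correlated at 0.977 to 0.991, and the array that correlated least with the rest was IM10 replicate 2, with a mean of 0.981. None of the 7 genes was among the dimmest 30% of probe sets. IER2 and NR4A3 were the dimmest of them, with means of 4.66 and 4.79 over the 18 arrays, below the array medians. Their means lay at percentiles 43.3 and 46.2 of all probe sets. A probe set was said to have risen or fallen when its fold change was beyond 1.2 and its unadjusted limma P under 0.05. These limits are those of the published methods, whereas the test is not, since the methods used a test of 2 groups at a time and limma was fitted here to all 3 groups. By this rule 298 probe sets fell and 284 rose in group IM10 compared with group CON. A rerun of the methods' test here gave 239 and 185. The paper, which names the same test and limits, reports fewer transcripts in each direction, and the reason was not tested. In bulk muscle, fewer cells of a type and less RNA per cell cannot be told apart.

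Compared with group CON, JUN, ATF3 and MYC fell in group IM10, ATF3 and MYC fell in group IM5, and no gene of the set rose in either. FOS and NR4A3 had lower means in group IM10 without passing, while EGR1 and IER2 had group means that lay within 0.14 of each other. Of the 7 genes, 3 fell in group IM10, 0 rose and 4 did not pass, where 1.17% of all probe sets fell and 1.12% rose. In group IM5, 2 fell, 0 rose and 5 did not pass, where 1.01% of all probe sets fell and 1.09% rose. The median log2 difference of the 7 genes was -0.60 for group IM10 and -0.32 for group IM5, each against group CON, beside a median over all probe sets of -0.00 for group IM10. Both comparisons use the same CON pigs.

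Among the AP-1 genes, FOS, the partner of JUN in the classical AP-1 dimer, had a lowest, median and highest log2 value of 5.44, 6.17 and 6.69 in group CON, 5.14, 6.19 and 7.47 in group IM5, and 4.70, 5.39 and 6.34 in group IM10. The groups overlapped, and 3 of the IM10 pigs lay below every CON pig. Its mean was 5.45 ± 0.64 in group IM10 and 6.12 ± 0.48 in group CON (SD, n = 6 each), a log2 difference of -0.67 (standard error 0.36), while group IM5, at 6.18 ± 0.93, differed from group CON by 0.06, or by -0.20 without IM5 replicate 1 and 0.26 without IM5 replicate 3. The mean of group IM5 rested on a wide spread, with IM5 replicate 1 at 7.47, the highest of all pigs, and replicates 3 and 5 at 5.14 and 5.31.

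JUN, the partner that gives AP-1 its stable DNA binding, had a lowest, median and highest value of 8.30, 8.80 and 9.03 in group CON, 7.65, 8.39 and 9.49 in group IM5, and 7.26, 7.68 and 8.87 in group IM10. It fell in group IM10, with a mean of 7.93 ± 0.64 against 8.73 ± 0.32 in group CON, a log2 difference of -0.80 (standard error 0.30) and a fold change of -1.74. The groups overlapped through IM10 replicates 6 and 3, at 8.87 and 8.58, whereas the other 4 IM10 pigs lay below every CON pig. In group IM5 the log2 difference from group CON was -0.32 (standard error 0.30), with 3 pigs below every CON pig and 1 above. It was -0.53 without IM5 replicate 1 and -0.17 without IM5 replicate 3 or 5.

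ATF3, a stress-induced member of the ATF family that often represses its targets, showed the largest differences of the 7 genes. Its lowest, median and highest values were 7.23, 8.06 and 9.03 in group CON, 5.39, 7.06 and 8.34 in group IM5, and 6.08, 7.17 and 7.48 in group IM10. The log2 difference was -1.27 (standard error 0.39) in group IM10 and -1.17 (standard error 0.39) in group IM5, each against group CON, which are fold changes of -2.41 and -2.25. In each insect meal group 4 of the 6 pigs lay below every CON pig. Group IM10 overlapped with group CON through CON replicate 5 alone, at 7.23, while IM5 replicate 2, at 8.34, lay well inside the range of group CON.

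EGR1, which is switched on by growth factors through SRF, differed little between the groups. Its lowest, median and highest values were 6.03, 6.18 and 6.64 in group CON, 5.87, 6.28 and 6.86 in group IM5, and 5.99, 6.22 and 6.51 in group IM10. The log2 difference from group CON was -0.05 in group IM10 and 0.03 in group IM5 (standard error 0.15 each). The groups overlapped almost wholly.

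NR4A3, a nuclear receptor gene induced by exercise and adrenergic signals in muscle, had a lowest, median and highest value of 4.57, 4.86 and 6.66 in group CON, 3.90, 4.30 and 5.52 in group IM5, and 3.93, 4.49 and 5.59 in group IM10. The log2 difference from group CON was -0.60 (standard error 0.35) for both insect meal groups. These differences leaned on CON replicate 3, whose value of 6.66 was the highest of all pigs, and without it both were -0.31. Without IM10 replicate 3, at 5.59, the difference of group IM10 was -0.80 and passed the thresholds, and that of group IM5 was -0.79 without IM5 replicate 2 and -0.78 without IM5 replicate 4, both past the thresholds.

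IER2, a nuclear protein gene induced by serum and growth factors, ranged from 4.16 to 5.01 in group CON, from 4.51 to 5.11 in group IM5 and from 4.39 to 4.96 in group IM10. No IM10 pig lay outside the range of group CON, and its log2 difference from group CON was -0.07 in group IM10 and 0.07 in group IM5 (standard error 0.13 each).

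MYC had a lowest, median and highest value of 6.29, 6.58 and 6.74 in group CON, 5.75, 6.04 and 6.21 in group IM5, and 5.84, 6.13 and 6.76 in group IM10. It was the only one of the 7 genes without overlap in any of the 3 comparisons: all 6 IM5 pigs lay below every CON pig, which held for 0.0591% of all probe sets. The share of all probe sets with every IM10 pig below every CON pig was 0.114%, and that with every IM10 pig below every IM5 pig was 0.0709%. Its log2 difference from group CON was -0.52 (standard error 0.13) in group IM5 and -0.29 (standard error 0.13) in group IM10. The fold change of group IM10, -1.22, was close to the threshold, 4 IM10 pigs lay below every CON pig and IM10 replicate 4 lay above all of them. The fall in group IM10 did not pass with the methods' test for 2 groups, or when any one of CON replicates 1, 2, 4 and 6 or IM10 replicates 1, 3, 5 and 6 was left out, and was -0.21 without IM10 replicate 3. The fall in group IM5 passed whichever pig was left out.

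**Figure D1:**
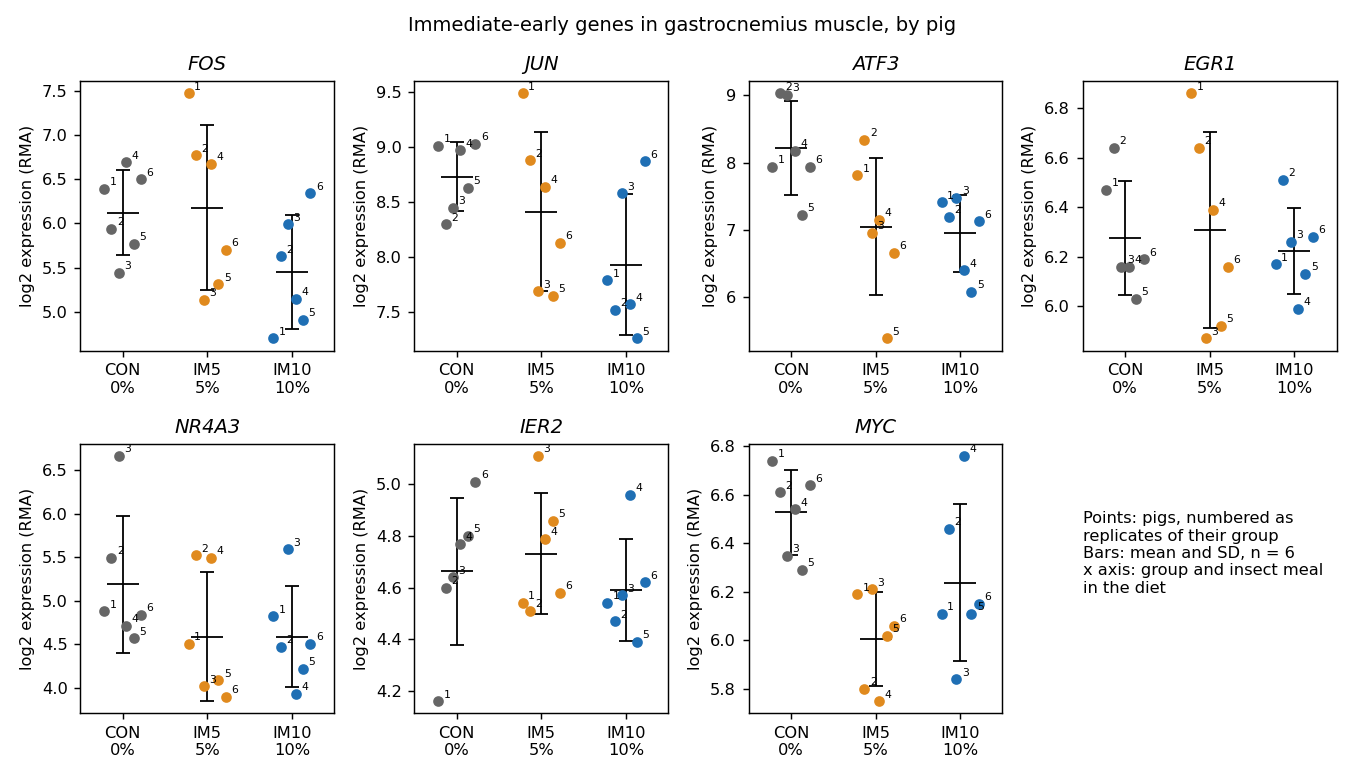
Log2 expression (RMA, vertical axes, a separate scale for each gene) of 7 immediate-early genes in each pig of groups CON, IM5 and IM10, with 0, 5 and 10% insect meal. Points are pigs numbered by replicate, and bars give the mean and SD of 6 pigs: MYC of all IM5 pigs lies below that of every CON pig, while the SD of FOS, JUN, ATF3 and EGR1 is largest in group IM5, without any difference in spread that passed the correction.

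Groups IM10 and IM5 were then compared directly, a comparison that shares its pigs with those above. At the thresholds 0 of the 7 genes rose and 0 fell, where 1.32% of all probe sets fell and 1.43% rose. FOS averaged 5.45 ± 0.64 in group IM10 and 6.18 ± 0.93 in group IM5, a log2 difference of -0.72 (95% confidence interval -1.46 to 0.02, limma adjusted p = 0.931). The interval of JUN was -1.10 to 0.14 around -0.48 (limma adjusted p = 0.931), and that of MYC was -0.04 to 0.51 around 0.23 (limma adjusted p = 0.931). Single pigs moved these values. FOS passed the thresholds without IM5 replicate 3, 5 or 6 or IM10 replicate 3 or 6, reaching -0.93, JUN passed without IM5 replicate 3 or 5 or IM10 replicate 6, and MYC, at 0.31, passed without IM10 replicate 3. Other pigs moved them the other way, with FOS at -0.46 and JUN at -0.27 without IM5 replicate 1, and MYC at 0.13 without IM10 replicate 4. The ATF3 difference was -0.10 (95% confidence interval -0.92 to 0.71, limma adjusted p = 0.983) and that of NR4A3 0.00 (95% confidence interval -0.73 to 0.74, limma adjusted p = 1), intervals that leave room for differences in either direction.

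**Figure D2:**
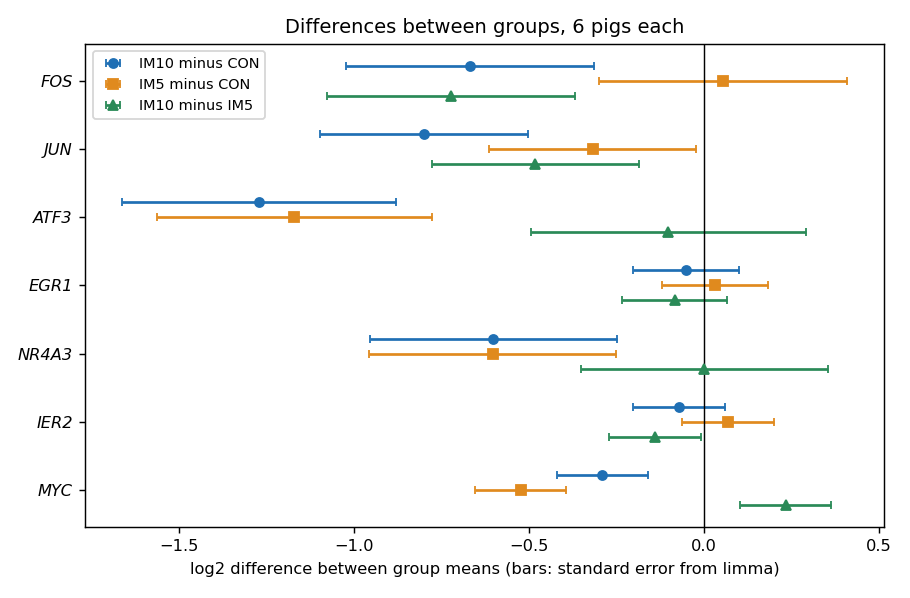
Log2 difference between group means for each gene (horizontal axis), with bars for the standard error from limma and 6 pigs per group. ATF3 lies near -1.2 for both insect meal groups against group CON, FOS near 0 for group IM5 and at -0.67 for group IM10, and MYC further below 0 for group IM5 than for group IM10.

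FOS, JUN, ATF3 and NR4A3 were among the most variable transcripts between pigs of one group. Their pooled SD within groups was 0.709, 0.588, 0.785 and 0.705 on the log2 scale, beside a median of 0.192 over all probe sets. ATF3 ranked 80, FOS 124, NR4A3 130 and JUN 243 among the 25388 probe sets. EGR1, IER2 and MYC varied less, with 0.283, 0.242 and 0.239. Group membership took up 49.0% of the variance of MYC, 39.4% of that of ATF3, 27.3% of that of JUN and 20.5% of that of FOS. The share was 16.3% for NR4A3, 6.30% for IER2 and 1.73% for EGR1. Because the genes were chosen with group differences known, these shares are a description only. Means of 6 pigs per group take up part of the variance even where the diets do not differ. No share over all probe sets is given here to compare with. The spread itself was compared between groups in 21 exact permutation tests over 924 arrangements, which were chosen after the values had been seen. None passed the Benjamini-Hochberg correction. The SD of FOS was 0.930 in group IM5 and 0.482 in group CON (exact permutation p = 0.0325, Benjamini-Hochberg 0.348), that of JUN 0.723 in group IM5 and 0.316 in group CON (exact permutation p = 0.0455, Benjamini-Hochberg 0.348), and that of EGR1 0.175 in group IM10 and 0.396 in group IM5 (exact permutation p = 0.0498, Benjamini-Hochberg 0.348).

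To see how the genes varied together between pigs, each value was set against the mean of its own group, so that differences between diets did not enter, and pairs of genes were correlated over the 18 pigs. All 10 pairs of FOS, JUN, ATF3, EGR1 and NR4A3 had a positive r over the 18 pigs, from 0.21 to 0.90. Their median was 0.53, whereas IER2 and MYC did not follow these genes over the 18 pigs. These 5 genes were grouped after the correlations had been seen. Over all 21 pairs the median r was 0.20, beside 0.00 over all pairs of probe sets, and 11 pairs were positive. A permutation test within groups, corrected over the 21 pairs, was passed by 4 positive and 2 negative pairs. The 4 positive pairs were among the 10 pairs of these 5 genes. The lowest r of the 10, that of FOS and NR4A3, did not pass (permutation p = 0.428, Benjamini-Hochberg 0.475).

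FOS and JUN were the closest pair, with r = 0.90 and rho = 0.85 (permutation p = 4.00e-05 and 0.00039, Benjamini-Hochberg 0.00084 and 0.00409, 18 pigs). JUN had the highest r with FOS of the 25387 other probe sets, and FOS the highest with JUN. An r of at least 0.9 was found in 0.00278% of all pairs of probe sets. The value changed little with the pigs used: r was 0.85 without the 2 pigs farthest out, IM5 replicates 1 and 3, and 0.87 to 0.94 when each pig was left out in turn. Within groups of 6, r was 0.83 in CON pigs, 0.99 in IM5 pigs and 0.82 in IM10 pigs (exact permutation p = 0.0681, 0.00278 and 0.0611, none past the correction over 63 such tests).

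EGR1 went with FOS (r = 0.71, rho = 0.68, permutation p = 0.0067 and 0.0114, Benjamini-Hochberg 0.0241 and 0.0400) and with ATF3 (r = 0.69, rho = 0.71, permutation p = 0.00688 and 0.00407, Benjamini-Hochberg 0.0241 and 0.0285). These calls rested on few pigs. Without IM5 replicates 1 and 3, the farthest out for FOS, r of EGR1 and FOS was 0.53 (permutation p = 0.0598, Benjamini-Hochberg 0.209), and without IM5 replicates 2 and 5, the farthest out for ATF3, r of EGR1 and ATF3 was 0.58 (permutation p = 0.0192, Benjamini-Hochberg 0.101). EGR1 and FOS also missed the correction without any one of the 6 IM5 pigs or IM10 replicate 4, with r of at least 0.60, and EGR1 and ATF3 without CON replicate 2 or 5, IM5 replicate 1, 2, 4, 5 or 6 or IM10 replicate 4, with r of at least 0.62. In group IM5, the 6 pigs came in the same order for FOS as for EGR1, and r was 0.98 (exact permutation p = 0.00139, Benjamini-Hochberg 0.0583 over 63 tests). The corresponding r was 0.10 in group CON and 0.50 in group IM10.

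ATF3 and NR4A3 formed another close pair, with r = 0.71 and rho = 0.84 (permutation p = 0.0022 and 8.00e-05, Benjamini-Hochberg 0.0231 and 0.00168). Within groups r was 0.81 in CON pigs, 0.63 in IM5 pigs and 0.78 in IM10 pigs, and it passed the correction without its 2 farthest pigs (r = 0.71, permutation p = 0.00502, Benjamini-Hochberg 0.0401). It missed the correction only without IM5 replicate 2, where r was 0.65.

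The negative pairs were EGR1 with IER2 (r = -0.64, rho = -0.67, permutation p = 0.00624 and 0.00918, Benjamini-Hochberg 0.0241 and 0.0386) and NR4A3 with MYC (r = -0.61, rho = -0.48, permutation p = 0.00659 and 0.0568, Benjamini-Hochberg 0.0241 and 0.149). EGR1 and IER2 ran against each other in every group, with r between -0.80 and -0.57, and passed without the 2 farthest pigs (r = -0.68, permutation p = 0.00573, Benjamini-Hochberg 0.0401). NR4A3 and MYC no longer passed without CON replicate 3 and IM10 replicate 3 (r = -0.49, permutation p = 0.0514, Benjamini-Hochberg 0.209), and r was -0.14 when the group means were not removed. Single pigs also ended these calls: EGR1 and IER2 missed the correction without IM5 replicate 1, 2, 3, 4 or 5 or IM10 replicate 4, with r between -0.65 and -0.56, and NR4A3 and MYC without CON replicate 3, IM5 replicate 2, 3, 4 or 5 or IM10 replicate 3 or 4, with r between -0.62 and -0.52.

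**Figure D3:**
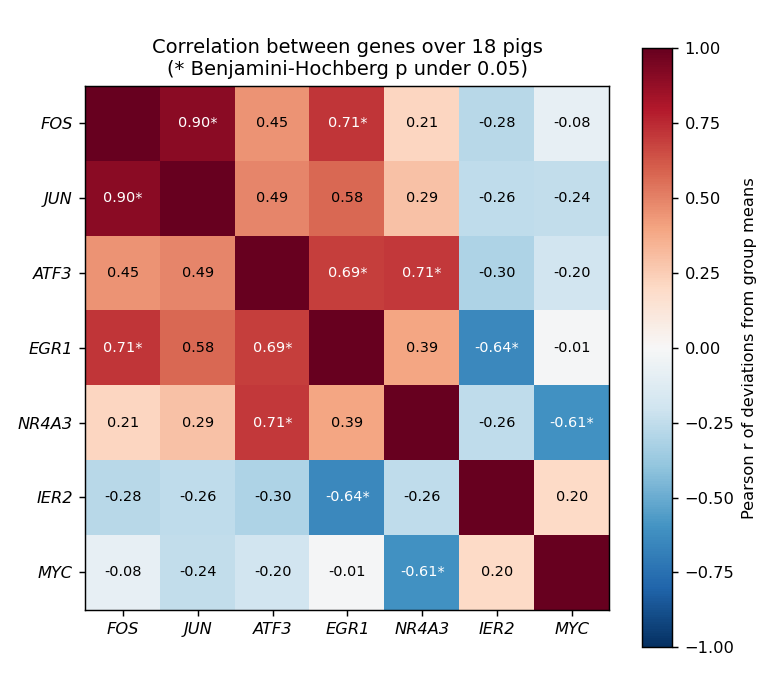
Pearson r between each pair of 7 genes over 18 pigs, computed on deviations from group means, with colour and number giving r and stars marking a Benjamini-Hochberg adjusted permutation p under 0.05. The block of FOS, JUN, ATF3, EGR1 and NR4A3 is positive throughout, and 6 of 21 pairs carry a star.

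The r of FOS and of JUN with ATF3 and NR4A3 was negative in group CON and positive in the groups fed insect meal. In the 12 insect meal pigs r was 0.71 for JUN and ATF3, 0.58 for JUN and NR4A3 and 0.55 for FOS and NR4A3. In the 6 CON pigs these were -0.58, -0.63 and -0.70 (exact permutation p = 0.236, 0.147 and 0.0958). FOS and ATF3 had r = 0.65 in the insect meal pigs and -0.32 in the CON pigs (exact permutation p = 0.522 in CON pigs). CON replicates 2 and 3 had the highest ATF3 of all pigs, at 9.03 and 9.01, together with the lowest JUN of their group, at 8.30 and 8.45. The difference between the correlations was tested for all 21 pairs after they had been seen, in exact permutation tests over 18564 arrangements of the pigs. JUN with ATF3, JUN with NR4A3 and FOS with NR4A3 had an exact permutation p of 0.00921, 0.0134 and 0.0158 and a Benjamini-Hochberg value of 0.111 each. FOS with ATF3 had an exact permutation p of 0.0928 and a Benjamini-Hochberg value of 0.301. Other pairs also changed sign. FOS and MYC had r = -0.24 in the insect meal pigs and 0.70 in the CON pigs (exact permutation p = 0.0515, Benjamini-Hochberg 0.270). JUN and EGR1 had r = 0.73 and -0.27 (exact permutation p = 0.118, Benjamini-Hochberg 0.301). No difference passed the correction.

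**Figure D4:**
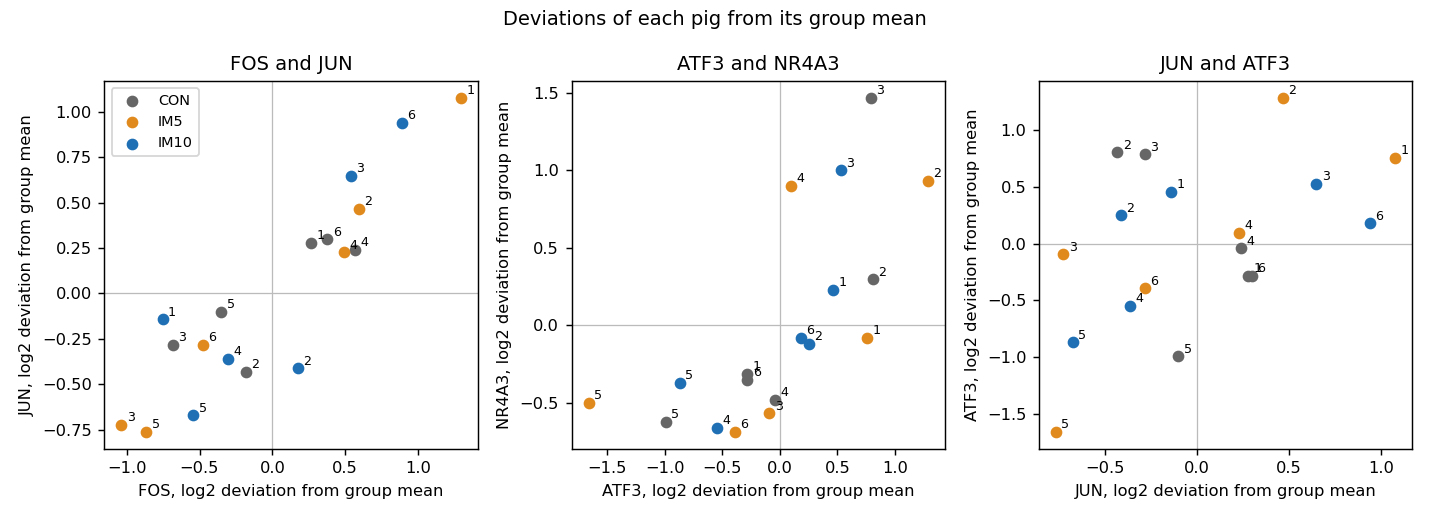
Deviation of each pig from its group mean (log2, both axes) for FOS and JUN, ATF3 and NR4A3, and JUN and ATF3, with points coloured by group and numbered by replicate. FOS and JUN lie along one line in all groups (r = 0.90 over 18 pigs), whereas for JUN and ATF3 the CON pigs run downward and the IM5 and IM10 pigs upward.

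Single pigs were high or low for several genes at once. IM5 replicate 1 had the highest FOS, JUN and EGR1 of all 18 pigs, at 7.47, 9.49 and 6.86. IM5 replicate 5 had the lowest ATF3, at 5.39, and IM10 replicate 5 the lowest JUN, at 7.26. In SD units of each gene, the mean deviation over the 7 genes was highest in IM5 replicate 1, at 0.980, and lowest in IM5 replicate 5, at -0.930, so the extremes in both directions came from group IM5. The order of sampling is not given in the sources used here, and its part in these differences between pigs was not tested.

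**Figure D5:**
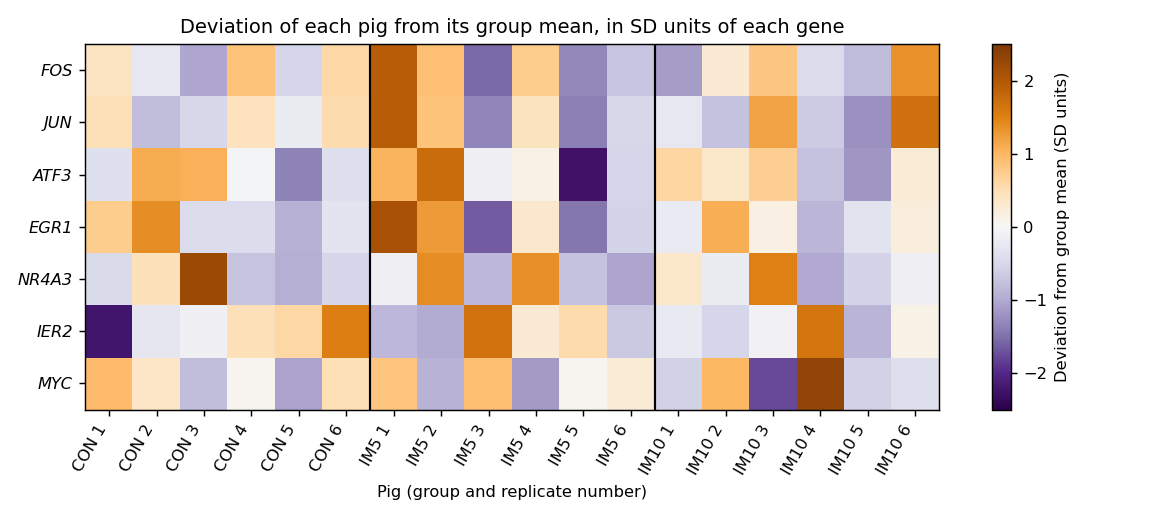
Deviation of each pig from its group mean in SD units of each gene (colour), with genes as rows and the 18 pigs of groups CON, IM5 and IM10 as columns. IM5 replicate 1 is high for FOS, JUN, ATF3 and EGR1, and IM5 replicate 5 is low for all 5 genes from FOS to NR4A3.

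The transcripts most like the mean profile of the 7 genes between pigs were then sought. Each of 10131 named probe sets outside the dimmest 30% was correlated with the mean deviation of the 7 genes. The result is a description over 18 pigs that share arrays and normalization. BTG2, an antiproliferative gene of the early response, had r = 0.74, with 0.79 for JUN, 0.72 for FOS and 0.53 for ATF3. NFIL3, a basic leucine zipper repressor, had r = 0.75, and RREB1, a zinc finger factor of Ras signalling, had r = 0.70. The highest of all was GPAA1 (r = 0.76), which attaches lipid anchors to proteins. The remaining names were TRAPPC2L (0.74), ILVBL (0.74), RNF111 (0.71), ZNF174 (0.69), POLD4 (0.69) and LMF2 (0.69). The 10 names did not follow IER2 or MYC closely, with r between -0.29 and 0.05 for IER2 and between -0.30 and 0.30 for MYC. An r of at least 0.7 was reached by 0.0691% of these candidates, a smaller share than the 0.339% of all pairs of single probe sets. The list changed with the pigs used, and 3 to 9 of the 10 names stayed when a pig was left out.

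Related genes of the same families were then examined. Of 13 probe sets for EGR and NR4A relatives, 0 rose and 0 fell in group IM10 compared with group CON, and 1 rose in group IM5, the glucocorticoid-responsive factor KLF9 (0.60, standard error 0.21). EGR2, a zinc finger factor close to EGR1, had a log2 difference from group CON of 0.20 for IM10 pigs and 0.21 for IM5 pigs (standard error 0.21 each), and its r over the 18 pigs was 0.59 with EGR1 and 0.52 with FOS. NR4A2, close to NR4A3, had a log2 difference from group CON of -0.28 for IM10 pigs and 0.00 for IM5 pigs (standard error 0.14 each), with r of 0.61 with EGR1 and 0.42 with NR4A3. Of 7 probe sets for AP-1 relatives, 1 rose, the amino acid stress factor ATF5 (0.59, standard error 0.21), and 0 fell in group IM10, while 1 fell in group IM5, the cAMP-response factor CREB5 (-0.43, standard error 0.15). For comparison, 1.17% of all probe sets fell and 1.12% rose in group IM10, and 1.01% fell and 1.09% rose in group IM5. Single calls in lists this short, put together with earlier results known, are given as a description.

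Among 38 probe sets for other immediate-early and early effector genes, 5 fell, 1 rose and 32 did not pass in group IM10, and 3 fell and 0 rose in group IM5. Over all probe sets 1.17% fell and 1.12% rose in group IM10, and 1.01% fell and 1.09% rose in group IM5. This list, like the others here, was put together with earlier results of these pigs known, so its counts are no independent evidence of a direction. BTG2 fell by 1.86 on the log2 scale in group IM10, with a mean of 7.96 ± 0.84 against 9.82 ± 0.27 in group CON, and the log2 difference of group IM5 was -1.10. The other falls in group IM10 were IFRD1 (-0.70), a transcriptional regulator of muscle differentiation, CTGF (-0.66), a matrix protein, PER1 (-0.48), a clock gene, and MCL1 (-0.28), a survival gene, and the rise was the clock-linked repressor BHLHE40 (0.46). IFRD1 (-0.50) and CTGF (-0.61) also fell in group IM5. PER1 did not follow the mean profile of the 7 genes between pigs, with r = -0.42. None of 29 probe sets for upstream regulators such as SRF, CREB1 and the stress kinases MAPK8 and MAPK9, and none of 16 for feedback inhibitors such as the dual specificity phosphatases, passed the thresholds in either insect meal group against group CON. Of 20 probe sets for the MYC network and MYC targets, 1 fell in group IM10, the glucose-sensing factor MLXIP (-0.30), and 1 rose in group IM5, the MYC antagonist MXI1 (0.32).

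Of 18 muscle fibre markers, 12 had a probe set, and their mean per pig was high throughout, at 11.96 to 12.11 in group CON, 11.91 to 12.12 in group IM5 and 11.94 to 12.16 in group IM10. Of 16 macrophage markers, 15 had a probe set, averaging 5.47 to 6.21 in group CON, 5.53 to 6.13 in group IM5 and 5.47 to 7.38 in group IM10, where replicate 2 was the highest pig. Of 9 smooth muscle and pericyte markers, 7 had a probe set, with a median per pig of 7.48 in group CON (7.41 to 7.62), 7.40 in group IM5 (7.02 to 7.53) and 7.33 in group IM10 (7.25 to 7.60). The medians of both insect meal groups lay below the lowest CON pig. Within groups, r of this list was 0.51 with JUN and 0.39 with ATF3 (permutation p = 0.0744 and 0.178, Benjamini-Hochberg 0.934 each). Without the 2 pigs farthest out, r was 0.25 with JUN and 0.05 with ATF3. With MYC, which fell in both insect meal groups, r over the 18 pigs was 0.01. The part of these markers in the differences between diets was not tested. The ranges of all 11 cell type lists overlapped between the groups. Of 77 correlations between 11 cell type lists and the 7 genes, none passed the Benjamini-Hochberg correction of the permutation test and 2 had an unadjusted permutation p under 0.05, endothelium with JUN (r = 0.61) and satellite cells with IER2 (r = -0.56). Without IM10 replicate 2 the r of FOS and JUN was 0.94.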

How the data were processed

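Gene expression in gastrocnemius muscle was measured on 18 Affymetrix Porcine Gene 1.0 ST arrays, 6 each for groups CON, IM5 and IM10, from RNA with an integrity number of 7.72 ± 0.41 (mean and SD). The deposited log2 values, made by the authors with RMA in Expression Console and given to 2 decimals, were used as they stand, and precision is limited by the number of arrays. Names came from the array annotation, in which 13327 probe sets carried 1 symbol, 357 several and 11704 none.

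One limma 3.58.1 fit (R 4.3.3) of group means to all arrays gave the comparisons, with Benjamini-Hochberg adjustment over 25388 probe sets. Of these, 1, 0 and 0 passed an adjusted p of 0.05 for IM10 against CON, IM5 against CON and IM10 against IM5, and 1112, 939 and 1324 an unadjusted P under 0.05. Pigs were treated as independent although they shared pens. Correlations used 100000 permutations within groups, or all 720 pairings within a group of 6. The code was tested on simulated data. Correlations and counts were computed with scipy 1.17.1 and numpy 2.4.6 in Python 3.11.15. The genes and lists were chosen with earlier results of these data known. Named were the 7 genes, up to 4 called members of each list, and the 10 transcripts most like the mean profile of the set. EGR2, NR4A2, KLF9, CREB5, MCL1, BHLHE40 and MXI1 were added after their values had been seen. Alternatives were the methods' t-test, a fit of 2 groups, the replicate block, no dim probes, other normalizations, array weights, another prior, and leaving out each pig in turn.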

Additional observations from a re-analysis of the deposited data

How the results depend on the processing

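The differences of the 7 genes were recomputed, giving 546 values, and 519 kept their side of the thresholds; 0 of the called differences changed sign. JUN and ATF3 in group IM10 and ATF3 and MYC in group IM5, each against group CON, passed in all these recomputations of the array values. The paper's qPCR of JUN and ATF3 gave no significant difference between groups IM10 and CON. FOS in group IM10 against group CON passed in a fit of these groups alone (-0.67) and without CON replicate 3 (-0.80), IM5 replicate 1 or IM10 replicate 6 (-0.85). With arrays set to a common median, 1 of the 7 genes, FOS (-0.74), fell in group IM10 compared with group IM5, and the split over all probe sets was 255 higher and 462 lower, beside 363 and 335. Without the dimmest 30% of probe sets, which leaves fewer to test, 354, 282 and 394 passed for IM10 against CON, IM5 against CON and IM10 against IM5, beside 582, 532 and 698, and the methods' t-test gave 351 for IM5 against CON. When each pig was left out in turn, these counts were 566 to 773, 519 to 668 and 650 to 892. Of the 7 genes, 2 to 4 fell in IM10 against CON, 2 to 3 in IM5 against CON and 0 to 2 in IM10 against IM5, where 0 to 1 rose.

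The number of correlated pairs was 1 without IM5 replicate 2, 2 without IM5 replicate 4 or 5 or IM10 replicate 4, 3 without IM5 replicate 1 or 3, 7 without IM10 replicate 2, and 3 without the 2 farthest pigs of each pair, beside 6. The median r was 0.11 to 0.26 without single pigs and 0.043 with Spearman's rho. Of the 10 most similar transcripts, 3 stayed with a median profile, 6 without the filter on dim probes and 4 with a profile of 5 genes, which was chosen after seeing the data; 3 to 9 stayed without single pigs.

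The sample titles number the replicates without saying whether equal numbers mark paired pigs. Deviations from group means correlated at a mean of 0.073 between same-numbered pigs of different groups, beside -0.015 between differently numbered ones. Of the same-numbered pairs, 5 of 18 correlated above 0.1, and 9 of 36 best matches in another group shared the number. Whether the numbers pair the pigs is therefore left undecided. With the replicate number as a block, 654, 590 and 766 probe sets passed for the 3 comparisons, MYC in group IM10 no longer passed, as with the methods' t-test, and r was 0.61 for ATF3 and EGR1 and -0.49 for EGR1 and IER2, neither past the correction. With group means not removed, r of ATF3 and EGR1 was 0.55 and did not pass either. Each gene had 1 probe set, so averaging probe sets gave no other value.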
